A study of Mus musculus with 6 samples.

Results

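The receptor chains for cytokines of the common gamma chain family were followed in RNA-seq libraries of mouse CD4+ T cells exposed to CX-4945, an inhibitor of protein kinase CK2, or to its solvent. The 8 members are the genes Il2ra, Il2rb, Il2rg, Il4ra, Il7r, Il9r, Il15ra and Il21r, taken by name for the receptors of IL-2, IL-4, IL-7, IL-9, IL-15 and IL-21. All 8 had a row among the 38924 genes of the deposited table, and 7 had enough reads to be tested, among 12502 genes tested in all. Both groups were naive CD4+ T cells from spleens of C57 BL/6 mice, kept for 72 h with antibodies to CD3 and CD28 and with IL-6, IL-23 and TGFb1, a mixture that favours Th17 cells. The CX-4945 group had 3 libraries with the inhibitor, at a dose given in the labels as 2 mM. The unit may have lost a micro sign, so that the dose may have been 2 µM, and the labels do not settle this. The DMSO group had 3 libraries with solvent only. The labels give no age or sex of the mice and do not say whether each culture came from its own mouse, so the p-values reflect only how far these cultures differed from each other, which may be technical. None of the family's own cytokines is listed among the culture additions.

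The common gamma chain, encoded by Il2rg, pairs with a private chain for each cytokine of the family. The private chain binds the cytokine, and JAK1 on it and JAK3 on the gamma chain phosphorylate STAT proteins, mainly STAT5 for IL-2, IL-7, IL-9 and IL-15, STAT6 for IL-4 and STAT3 for IL-21. IL-2 and IL-15 share the beta chain encoded by Il2rb and add their own alpha chain. In T cells these receptors are known for survival of naive and memory cells (IL-7), growth and Treg maintenance (IL-2), Th2 differentiation (IL-4) and support of Th17 and follicular helper cells (IL-21).

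With CX-4945, RNA of 6 of the 7 tested chains fell, that of 0 rose, and Il15ra did not pass the test. All 7 log2 fold changes were below 0, so at an unadjusted p under 0.05 too 0 chains were higher, and DESeq2 and limma-voom also called 0 higher. Il7r fell 3.42-fold, whereas the other 5 fell by log2 fold changes of 0.25 to 0.61. Among all 12502 genes tested, 31.3% were lower and 30.6% were higher in CX-4945 at an adjusted p under 0.05. The median log2 fold change was -0.50 over the 7 chains and -0.0029 over all tested genes. For 6 of 7 chains every CX-4945 library lay under every DMSO library, which was so for 34.8% of all tested genes. Tested against a minimum fold of 1.5, 1 of 7 chains passed, Il7r, against 9.61% of all tested genes that were lower by this test. Without CX-4945 library 2, 5 chains passed, Il2ra no longer among them. Fewer cells carrying a receptor and less of its RNA per cell cannot be told apart in these bulk libraries.

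Libraries are named by their numbers in the deposited table, 2, 4 and 6 for CX-4945 and 1, 3 and 5 for DMSO. They held 22178614 to 26148189 uniquely placed exon reads with CX-4945 and 24150828 to 24650050 with DMSO. By these totals a count of 3 reads equals 0.115 to 0.135 CPM (counts scaled to a common library total), a limit that covers counting error only. This range is without the TMM scaling, described below, of the other CPM values, and so differs slightly from them. The cells carried the CD4 T cell markers, of which 9 of 12 were lower and 0 higher with CX-4945, their summed level being 3641 to 3728 CPM in CX-4945 libraries and 5232 to 5517 CPM in DMSO libraries. Markers of other cells that carry these receptors were low. B cell markers, with log2 fold changes of -0.56 to 0.36 that did not pass the test, summed to 13.9 to 14.9 CPM with CX-4945 and 12.6 to 21.6 CPM with DMSO. Macrophage markers, with 1 of 5 tested higher, summed to 18.6 to 35.2 CPM with CX-4945 and 13.9 to 21.0 CPM with DMSO, and NK cell markers, with 2 of 2 tested higher, to 5.83 to 7.30 CPM with CX-4945 and 4.71 to 4.97 CPM with DMSO. Dendritic cell markers, 1 of 4 tested lower and Siglech with 0 reads, summed to 4.34 to 7.51 CPM with CX-4945 and 7.76 to 8.81 CPM with DMSO. CD8 T cell markers, 1 of 2 lower, summed to 14.2 to 23.1 CPM with CX-4945 and 19.9 to 28.0 CPM with DMSO, and gamma-delta T cell markers, whose 2 tested genes (log2 fold changes 0.36 and 0.58) did not pass, to 5.40 to 7.51 CPM with CX-4945 and 4.07 to 6.22 CPM with DMSO. Mast cell markers, 1 of 2 tested lower, summed to 5.65 to 7.74 CPM with CX-4945 and 7.72 to 9.92 CPM with DMSO, and ILC2 markers, 1 of 2 tested higher, to 2.62 to 3.58 CPM with CX-4945 and 1.67 to 1.74 CPM with DMSO. These marker counts stand beside 31.3% lower and 30.6% higher among all 12502 genes tested. No marker list was tested against these shares. The part of these other cells, and of the lower CD4 T cell markers, in the results for the chains was not tested.

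The chains lie on 5 chromosomes of mm10, with 2 pairs near each other: Il2ra (chr2:11642792-11693191) beside Il15ra (chr2:11705287-11733986), and Il4ra (chr7:125552282-125579472) beside Il21r (chr7:125603429-125633570), all on the plus strand. Il2rb (chr15:78480553-78495066), Il7r (chr15:9506161-9529876), Il9r (chr11:32187541-32200279) and Il2rg (chrX:101264378-101268255) lie on the minus strand. In the GENCODE annotation the gene model Gm37881 lies in the span of Il2ra on the same strand and Gm44876 in that of Il4ra on the opposite strand, and neither was analysed here. RefSeq promoters (GRCm38.p6, 250 bases before to 50 after the start) were matched for 7 of the 8 genes, not for Il2rb. Those of Il7r, which fell furthest, of Il21r, and of Il2ra, the most abundant chain with the smallest change past the threshold, are shown 5′ to 3′ on the strand of the gene, with matches to 5 motifs in capitals.
Il7r, chr15:9529827-9530126, minus strand: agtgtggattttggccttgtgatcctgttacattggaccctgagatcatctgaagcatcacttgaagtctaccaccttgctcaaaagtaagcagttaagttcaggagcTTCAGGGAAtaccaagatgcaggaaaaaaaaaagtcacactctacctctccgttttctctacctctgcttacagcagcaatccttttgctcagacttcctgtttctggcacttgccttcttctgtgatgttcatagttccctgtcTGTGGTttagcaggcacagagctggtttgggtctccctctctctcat
Il21r, chr7:125603179-125603478, plus strand: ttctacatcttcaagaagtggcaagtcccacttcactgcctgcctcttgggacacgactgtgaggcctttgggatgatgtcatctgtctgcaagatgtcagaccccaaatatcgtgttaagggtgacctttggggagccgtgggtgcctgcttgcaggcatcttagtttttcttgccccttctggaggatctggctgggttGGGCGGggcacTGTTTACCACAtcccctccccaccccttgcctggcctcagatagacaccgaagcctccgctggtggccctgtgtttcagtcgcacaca
Il2ra, chr2:11642542-11642841, plus strand: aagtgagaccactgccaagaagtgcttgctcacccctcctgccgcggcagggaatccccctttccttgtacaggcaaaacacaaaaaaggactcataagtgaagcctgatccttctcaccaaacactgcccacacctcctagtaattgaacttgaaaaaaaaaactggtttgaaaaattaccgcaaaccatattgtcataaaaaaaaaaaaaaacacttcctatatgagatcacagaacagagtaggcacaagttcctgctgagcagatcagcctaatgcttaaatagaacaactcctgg
The motifs, searched on both strands, were the STAT-type palindrome TTCNNNGAA (in 8.30% of all 32851 promoters), its STAT6-type form with a spacer 1 base longer (6.95%), the FOXO-type GTAAACA (3.65%), the RUNX-type TGTGGT (16.8%) and the GC box GGGCGG (35.7%). The Il7r window holds a TTCNNNGAA match that begins 142 bases before the RefSeq start and a TGTGGT match 3 bases after it. In the GENCODE annotation Il7r begins further upstream, at 9530176, so that this whole window lies within the gene. The Il21r window holds a GC box, a FOXO-type match and a RUNX-type match on the opposite strand, which begin 49, 38 and 33 bases before the start, the last 2 overlapping. The Il2ra window holds none of the 5. Among the windows not shown, those of Il2rg and Il9r hold a TGTGGT match, and those of Il4ra and of 1 Il15ra start a GC box. A match is a string of letters, and binding was not measured.

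Il2rg, the chain all these receptors share, needs care with read counts. Its span lies within that of another gene model on the same strand, Gm20489 (chrX:101261405-101269023). A read that fits both models may have been counted as unique to neither, but the counting rule is not given. Over the 6 libraries 3288 unique exon reads were counted for Il2rg and 3 for Gm20489. The authors' mean RPKM of Il2rg in the deposited table was 11.9 times its unique reads per kilobase with CX-4945 and 11.1 times with DMSO, whereas for the other 7 chains this factor was 0.70 with CX-4945 and 0.65 to 0.66 with DMSO. Shared reads as the source of this gap were not tested. Because of the gap, its level is not read from the unique reads, which are used for its change between groups. These stood at 19.4, 19.2 and 20.9 CPM in CX-4945 libraries 2, 4 and 6, against 26.4, 26.0 and 23.8 CPM in DMSO libraries 1, 3 and 5. The groups did not overlap, and DMSO library 5 was the lowest of its group. The log2 fold change was -0.36 ± 0.07 (SE; adjusted p = 0.00349). The authors' mean RPKM in the deposited table was 99.0 with CX-4945 and 118.0 with DMSO.

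Il2ra encodes CD25, the alpha chain that raises the affinity of the IL-2 receptor and marks activated and regulatory T cells. It had 2519, 2437 and 2736 CPM in CX-4945 libraries 2, 4 and 6, against 3045, 3082 and 3017 CPM in DMSO libraries 1, 3 and 5. The DMSO libraries lay close together, and the CX-4945 libraries were lower and more spread, at 2564 ± 155 CPM with CX-4945 and 3048 ± 32.8 CPM with DMSO (SD, n = 3 each). The log2 fold change was -0.25 ± 0.06 (SE; 95% interval -0.39 to -0.11; adjusted p = 0.00857). The call of this small fall did not hold in every setting. Without CX-4945 library 2 the log2 fold change was -0.23 and the call was lost (edgeR adjusted p = 0.0556). After quantile normalization in limma-voom, an alternative chosen after seeing the data, the log2 fold change was -0.05 (adjusted p = 0.496). In the authors' deposited table the group mean of Il2ra was 354.4 RPKM with CX-4945 and 393.3 RPKM with DMSO before the authors' normalization, and 379.5 with CX-4945 and 365.8 with DMSO after it.

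Il2rb, the beta chain that signals for IL-2 and IL-15, had 687, 687 and 703 CPM in CX-4945 libraries 2, 4 and 6, against 998, 957 and 995 CPM in DMSO libraries 1, 3 and 5. The 3 CX-4945 libraries differed from each other far less than from DMSO, at 692 ± 9.26 CPM with CX-4945 and 983 ± 22.7 CPM with DMSO (SD, n = 3 each). The log2 fold change was -0.51 ± 0.05 (SE; adjusted p = 8.54e-05).

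Il15ra, the alpha chain that binds IL-15 and presents it to neighbouring cells, was low in both groups. It had 3.83, 2.74 and 3.71 CPM in CX-4945 libraries 2, 4 and 6, against 3.59, 4.09 and 4.37 CPM in DMSO libraries 1, 3 and 5. The groups overlapped, and at 62 to 103 reads per library the log2 fold change of -0.23 ± 0.17 (SE) had a 95% interval of -0.61 to 0.16 (adjusted p = 0.274). A fall as large as that of Il2rb lies within this interval.

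Il4ra, which binds IL-4 and, with Il13ra1, also forms the IL-13 receptor, had 783, 768 and 811 CPM in CX-4945 libraries 2, 4 and 6, against 1238, 1221 and 1149 CPM in DMSO libraries 1, 3 and 5. The groups were far apart, at 787 ± 22.1 CPM with CX-4945 and 1202 ± 47.2 CPM with DMSO (SD, n = 3 each). The log2 fold change was -0.61 ± 0.06 (SE; adjusted p = 6.31e-05), or 1.53-fold lower.

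Il7r encodes CD127, the IL-7 receptor alpha chain, which is high on naive and memory T cells and low on recently activated and regulatory T cells. It had 78.1, 70.7 and 79.1 CPM in CX-4945 libraries 2, 4 and 6, against 271, 232 and 277 CPM in DMSO libraries 1, 3 and 5. The highest CX-4945 library was far under the lowest DMSO library, and the means were 75.9 ± 4.56 CPM with CX-4945 and 260 ± 24.1 CPM with DMSO (SD, n = 3 each). The log2 fold change was -1.77 ± 0.08 (SE; 95% interval -1.96 to -1.59; adjusted p = 1.07e-05).

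Il9r, the IL-9 receptor alpha chain, was barely detected and did not pass the filter on low counts. It had 4, 4 and 3 reads in CX-4945 libraries 2, 4 and 6, against 10, 4 and 6 reads in DMSO libraries 1, 3 and 5, or 0.112 to 0.177 CPM with CX-4945 and 0.167 to 0.418 CPM with DMSO. These counts are near the limit of 3 reads. Fitted without the filter, the log2 fold change was -0.89 ± 0.54 (SE; edgeR adjusted p = 0.225), so a difference was not detectable at this depth.

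Il21r, which binds IL-21, had 355, 358 and 348 CPM in CX-4945 libraries 2, 4 and 6, against 493, 475 and 536 CPM in DMSO libraries 1, 3 and 5. The CX-4945 libraries were nearly equal, at 354 ± 5.07 CPM with CX-4945 and 502 ± 31.5 CPM with DMSO (SD, n = 3 each). The log2 fold change was -0.50 ± 0.06 (SE; adjusted p = 0.000182).

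**Figure D1:**
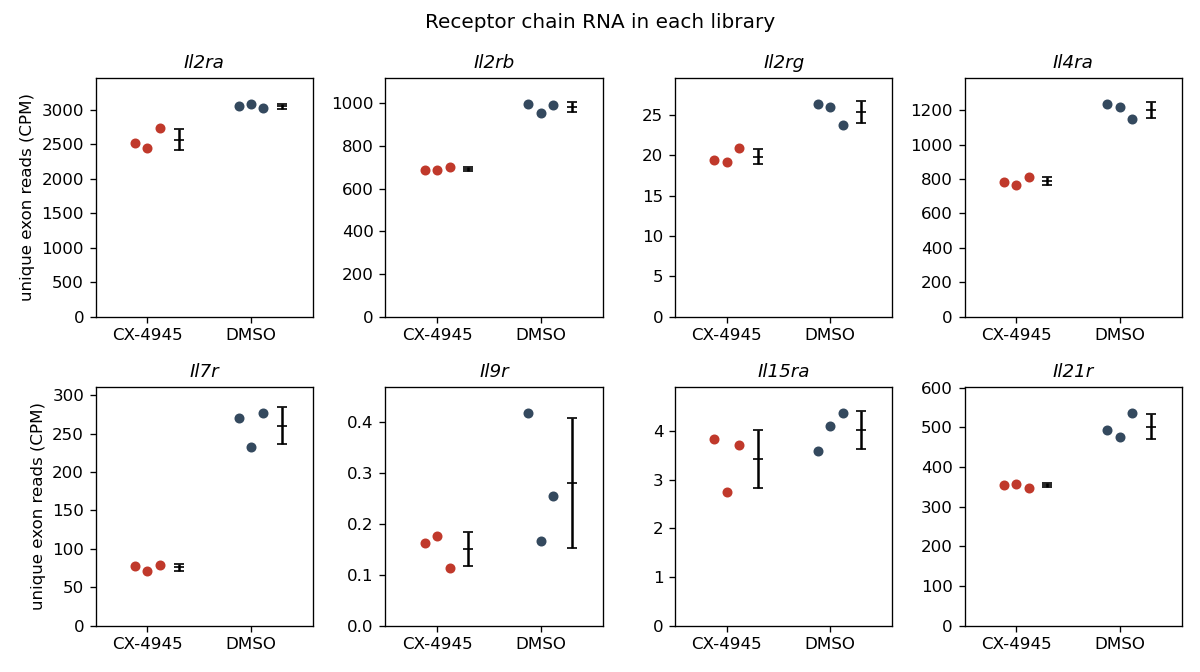
Unique exon reads of each receptor chain in CPM after TMM scaling, 1 point per library, CX-4945 left and DMSO right of each panel, each axis starting at 0 with its own range, and the mean ± SD beside each group (n = 3). The groups are apart for 6 chains and overlap for Il15ra and Il9r, and Il7r falls to 75.9 CPM in CX-4945, against 260 CPM in DMSO.

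Levels of different chains were compared per kilobase of exon. Il2ra was the most abundant, at 504 ± 30.4 CPM per kb in CX-4945 and 599 ± 6.44 CPM per kb in DMSO (SD, n = 3 each). Il2rb followed at 249 ± 3.33 CPM per kb in CX-4945 and 353 ± 8.16 in DMSO, and Il4ra at 155 ± 4.35 CPM per kb in CX-4945 and 236 ± 9.27 in DMSO. Il21r came next, at 136 ± 1.94 CPM per kb in CX-4945 and 192 ± 12.1 in DMSO, and Il7r stood well under it at 23.7 ± 1.42 CPM per kb in CX-4945 and 81.0 ± 7.52 in DMSO. Il15ra, with 0.832 CPM per kb in CX-4945 and 0.976 in DMSO, and Il9r, with 0.0303 CPM per kb in CX-4945 and 0.0566 in DMSO, were far under the other chains. This order was the same in all 6 libraries. Il2rg cannot be placed in it by its unique reads. By the authors' mean RPKM in the deposited table, which gives no spread, Il2rg (99.0 with CX-4945 and 118.0 with DMSO) stood near Il21r (95.2 with CX-4945 and 125.9 with DMSO), under Il4ra (108.5 with CX-4945 and 154.7 with DMSO) and over Il7r (16.6 with CX-4945 and 53.0 with DMSO).

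**Figure D2:**
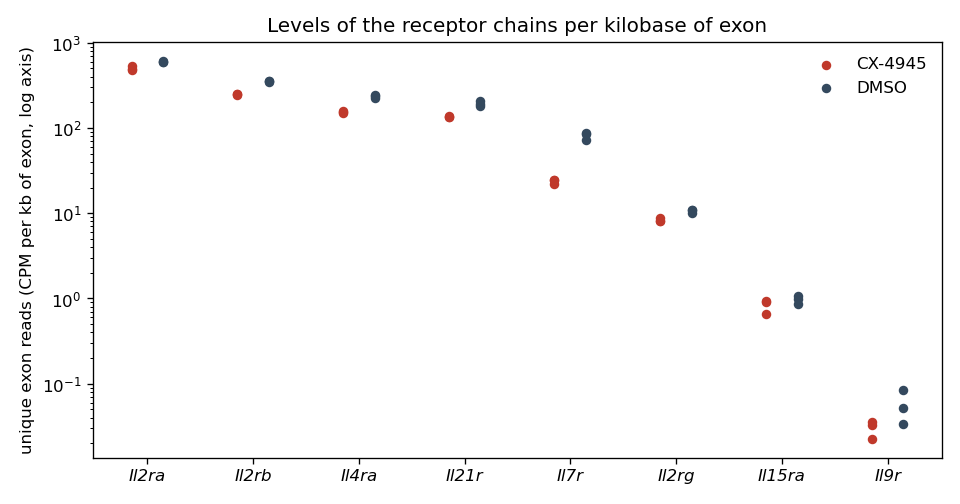
Unique exon reads of each chain in CPM per kilobase of exon on a log axis, 1 point per library, CX-4945 left and DMSO right for each chain. Il2ra is highest in both groups (504 CPM per kb in CX-4945 and 599 in DMSO on average), Il15ra and Il9r are lowest, and Il2rg is understated by its unique reads.

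Ratios between chains were taken within each library, where library scaling cancels, for 9 pairs of chains. These set each other chain against the gamma chain, Il2ra against Il2rb and Il15ra against Il2ra. With 3 against 3 libraries the smallest exact permutation p is 0.1, so no ratio could pass 0.05. Since the unique reads of Il2rg understate it, the ratios to it show changes and not proportions. The ratio of Il7r to Il2rg, from unique exon reads per kb, was 2.99, 2.74 and 2.82 in CX-4945 libraries 2, 4 and 6, against 7.63, 6.65 and 8.66 in DMSO libraries 1, 3 and 5. Every CX-4945 ratio was under every DMSO ratio, a log2 difference of -1.42 (exact two-sided permutation p = 0.1, 0.18 adjusted over the 9 pairs). The ratios of Il4ra to Il2rg (log2 difference -0.25) and of Il2rb to Il2rg (-0.15) were also lower in every CX-4945 library, and that of Il2ra to Il2rg (0.11) was higher in every CX-4945 library, all with the same p. The ratio of Il2ra to Il2rb, both parts of the high-affinity IL-2 receptor, was 2.00, 1.94 and 2.13 in CX-4945 libraries 2, 4 and 6, against 1.67, 1.76 and 1.66 in DMSO libraries 1, 3 and 5. The groups did not overlap, with a log2 difference of 0.26 and the same p. For Il21r, Il15ra and Il9r the ratio to Il2rg overlapped between the groups, with exact permutation p-values of 0.3, 0.6 and 0.4, and so did that of Il15ra to Il2ra, at 0.9.

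**Figure D3:**
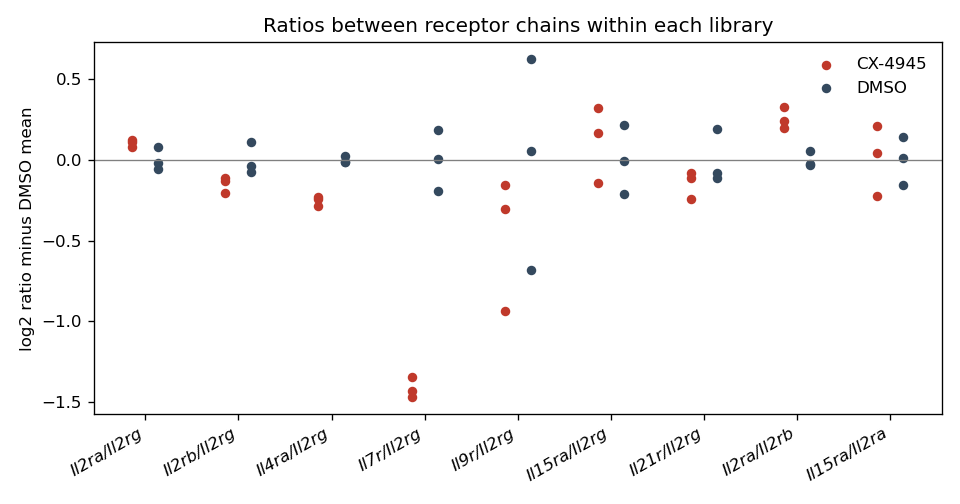
Log2 ratio of 2 chains within each library, from unique exon reads per kb, minus the mean of the DMSO libraries, 1 point per library, CX-4945 left and DMSO right for each pair. The mean difference is -1.42 for Il7r/Il2rg and 0.26 for Il2ra/Il2rb, both without overlap.

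The genes around the receptors were described by lists of the pathway. The counts of every list below stand beside 31.3% lower and 30.6% higher among all 12502 genes tested. No list was tested against these shares. Of 5 ligand genes tested, 2 fell, 1 rose and 2 did not pass. Il9 had 14.8 ± 2.50 CPM in CX-4945 and 0.784 ± 0.137 CPM in DMSO (SD, n = 3 each), a log2 fold change of 4.23 (adjusted p = 1.13e-05). Il21, the most abundant ligand and a product of Th17 cells, fell to 307 ± 27.8 CPM in CX-4945, against 414 ± 38.5 CPM in DMSO (log2 fold change -0.43, adjusted p = 0.00301). Il13 passed narrowly at 0.348 CPM in CX-4945 and 0.602 CPM in DMSO (adjusted p = 0.0481), and the call was lost without any 1 of the 6 libraries (adjusted p = 0.0592 to 0.138), as it was with library totals (0.0658), with no filter (0.0915), with quantile normalization (0.0852) and with DESeq2 (0.261). Il2 had 4.34 ± 1.27 CPM in CX-4945 and 2.39 ± 1.32 CPM in DMSO with overlapping libraries (adjusted p = 0.0886, but 0.0190 without DMSO library 3 and 0.0352 with quantile normalization). Il4 stood at 0.737 CPM in CX-4945 and 0.658 CPM in DMSO (adjusted p = 0.603). Il7, Il15 and Tslp, which come mainly from stromal, myeloid and epithelial cells, had 1, 3 and 0 reads over the 6 libraries and were not tested.

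Both tested partner chains fell, and so did all 6 kinases and STATs listed. Crlf2, the chain that joins Il7r in the TSLP receptor, had 49.1 ± 2.40 CPM in CX-4945 and 81.6 ± 10.3 CPM in DMSO (log2 fold change -0.73, adjusted p = 0.000288). Il13ra1 had 1.44 ± 0.29 CPM in CX-4945 and 8.37 ± 2.21 CPM in DMSO (-2.54, adjusted p = 6.95e-05), and Il13ra2, a decoy receptor, had 0 reads. Jak3, the kinase bound to the gamma chain, had 804 ± 34.9 CPM in CX-4945 and 1208 ± 173 CPM in DMSO (-0.59, adjusted p = 0.00119), and Jak1, bound to the private chains, gave -0.32 (adjusted p = 0.00067). Among the STATs the fall was largest for Stat5b, at 393 ± 17.6 CPM in CX-4945 and 729 ± 111 CPM in DMSO (-0.89, adjusted p = 0.000184), followed by Stat5a (-0.76), Stat3 (-0.62) and Stat6 (-0.25). The list's median log2 fold change was -0.60.

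Of 6 feedback inhibitors of JAK and STAT signalling, 3 fell, 2 rose and Cish did not pass. Socs2, a STAT5 target in several cell types, rose to 291 ± 3.18 CPM in CX-4945, against 118 ± 25.7 CPM in DMSO (log2 fold change 1.30, adjusted p = 0.000102). Cish, also a STAT5 target, had 169 ± 14.2 CPM in CX-4945 and 170 ± 7.72 CPM in DMSO (adjusted p = 0.935). Socs3, induced by STAT3, fell to 447 ± 14.9 CPM in CX-4945, against 759 ± 130 CPM in DMSO (-0.76, adjusted p = 0.00061), and Socs1 gave -0.34. The calls of Socs5 (-0.23) and Socs7 (0.18) were each lost without CX-4945 library 2 or DMSO library 1, and that of Socs5 also without CX-4945 library 4 or 6 or DMSO library 5 (adjusted p = 0.0534 to 0.148). Socs5 also lost its call with library totals, with no filter, with quantile normalization and with DESeq2 (adjusted p = 0.0561 to 0.129).

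Of 15 genes described as targets of STAT5 or STAT6, 11 fell, 1 rose and 3 did not pass (Pim1, Ccnd3 and Xbp1). Pim1 (adjusted p = 0.0367 and 0.0368) and Ccnd3 (adjusted p = 0.0309 to 0.0486) did pass, as lower, without CX-4945 library 6 or DMSO library 3. Foxp3, which defines Treg cells, had 26.8 ± 3.70 CPM in CX-4945 and 2.70 ± 1.35 CPM in DMSO (log2 fold change 3.31, adjusted p = 4.07e-05). Id2, a transcriptional regulator, had 102 ± 3.73 CPM in CX-4945 and 205 ± 7.75 CPM in DMSO (-1.01, adjusted p = 1.44e-05). The survival kinase Pim2 (-0.72), the cytokine Lif (-0.66), the cyclin Ccnd2 (-0.52), the transcriptional repressor Bcl6 (-0.50), the survival gene Mcl1 (-0.41) and Myc (-0.27) fell as well. Osm (-0.17), Prdm1 (-0.59), Bcl2 (-0.33) and Gata3 (-0.71) each lost the call without CX-4945 library 2, CX-4945 library 4 or DMSO library 1. Osm lost it also without CX-4945 library 6, and Prdm1 and Bcl2 also without DMSO library 5 (adjusted p = 0.0550 to 0.157 over these). The call was also lost for Bcl2 with library totals (0.0793), for Osm with library totals or DESeq2 (0.0655 to 0.147), and for Prdm1 with either of these, limma-voom or quantile normalization (0.0522 to 0.174).

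Of 12 transcription factors described as regulators of Il7r or Il2ra, 5 fell, 2 rose and 5 did not pass. Among all genes tested 31.3% fell and 30.6% rose. Foxo1, an activator of Il7r in naive T cells, had 217 ± 15.4 CPM in CX-4945 and 295 ± 10.6 CPM in DMSO (log2 fold change -0.45, adjusted p = 0.00051). Runx3, a T cell lineage factor, fell to 183 ± 30.4 CPM in CX-4945, against 372 ± 58.6 CPM in DMSO (-1.03, adjusted p = 0.000405). Ets1 (-0.62), Ikzf1 (-0.46) and Gfi1 (-0.62), the last a repressor of Il7r, fell too. Klf2, which like Il7r is controlled by Foxo1 and keeps T cells quiescent, rose to 61.3 ± 4.76 CPM in CX-4945, against 33.7 ± 1.48 CPM in DMSO (0.86, adjusted p = 4.68e-05). Gabpa, an ETS factor needed for Il7r, rose (0.34, adjusted p = 0.000836). Foxp1, Runx1, Nfatc1, Nfatc2 and Rel lay between -0.13 and 0.04 (adjusted p = 0.226 to 0.99).

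Of 6 genes for sorting, degradation or shedding of these receptors, 4 rose, 1 fell and Adam17 did not pass. Stub1, a ubiquitin ligase, had 26.3 ± 0.78 CPM in CX-4945 and 14.6 ± 1.99 CPM in DMSO (log2 fold change 0.85, adjusted p = 0.000219), and Adam10, a surface protease, 211 ± 20.1 CPM in CX-4945 and 161 ± 13.6 CPM in DMSO (0.39, adjusted p = 0.00421). The sorting gene Vps35 gave 0.17 (adjusted p = 0.0115). Rnf128 (-0.96) lost its call without CX-4945 library 2 or 6 or DMSO library 1 or 3, and Snx27 (0.16) without any 1 CX-4945 library or DMSO library 1 (adjusted p = 0.0554 to 0.103), and Rnf128 also with quantile normalization (0.0727).

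The same structural class holds 19 other type I cytokine receptor genes, of which 14 were tested, 9 fell, 2 rose and 3 did not pass, with a median log2 fold change of -0.72. Their log2 fold changes ran from -3.28 to 1.73, and those of the gamma chain receptors from -1.77 to -0.23. Il23r, the IL-23 receptor chain of Th17 cells, had 2.08 ± 0.37 CPM in CX-4945 and 20.3 ± 2.83 CPM in DMSO (-3.28, adjusted p = 1.23e-05), and Il12rb2, the second IL-12 receptor chain, 89.2 ± 23.9 CPM in CX-4945 and 328 ± 50.7 CPM in DMSO (-1.88, adjusted p = 9.07e-05). Lifr rose (1.73, adjusted p = 0.000917) at under 1 CPM in both groups. The call of Il6ra (-0.31) was lost without CX-4945 library 4 (adjusted p = 0.0590), and that of Prlr (1.08) without CX-4945 library 6 or DMSO library 1 or 5 (adjusted p = 0.0620 to 0.0774) or with DESeq2 (0.0640). Il6st, which did not pass, was higher without CX-4945 library 6 (adjusted p = 0.0489). No test compared the 2 sets of receptors, so a difference between them is not shown.

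**Figure D4:**
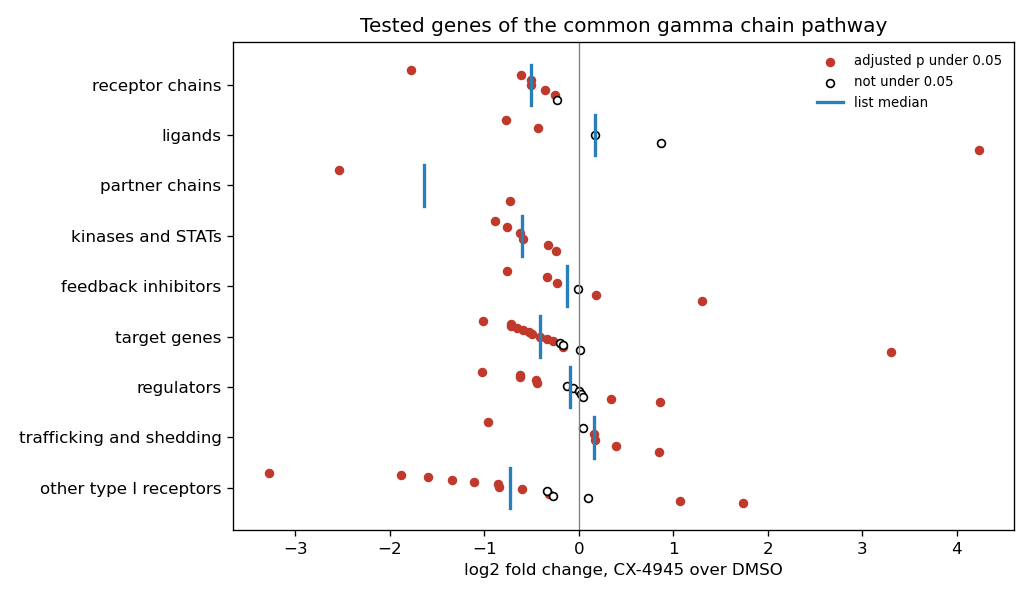
Log2 fold change (CX-4945 over DMSO) of each tested gene by list, filled points under an adjusted p of 0.05 in edgeR's quasi-likelihood test, open points not, and a bar at each list's median. All 6 kinases and STATs and both partner chains lie left of 0, as do all 7 tested receptor chains, while Il9 (4.23) and Foxp3 (3.31) lie far to the right.

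The genes whose pattern over the 6 libraries was most like that of a chain were found by the root mean square difference of centred log2 CPM, among 9333 genes. For Il7r these were Itga3 (0.0603), an integrin alpha chain, Jakmip1 (0.0735) and Cd27 (0.0870), a costimulatory receptor. Itga3 had 93.8 CPM in CX-4945 and 324.3 CPM in DMSO. Il2rb was most like Dedd2, Sqle and Plin3, Il21r like Exoc2, Dock5 and Ctsa, Il4ra like Ccdc50, Pgd and Tspan3, and Il2ra like Ywhag, Trafd1 and Asl. Among the tested chains, Il2rb and Il21r were the most alike (0.0468) and Il7r stood furthest from each of the others (0.590 to 0.782).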

How the data were processed

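Total RNA was extracted with Trizol and sequenced by an outside company with Illumina protocols, per the labels' protocols, and reads were placed on build mm10, as the submitters' processing notes state. Of the aligner, annotation, strand setting and counting options nothing is given in the sources used here, so genes that overlap on opposite strands cannot be told apart. The deposited counts used are headed unique exon reads, hold whole reads per gene and were taken as not normalized. The deposited group means, headed only as means, were taken as the authors' RPKM. A second pair of means, used as a signal, holds the authors' normalized values, per the file headers. Columns name a group but no replicate number of the labels, and 1 column per library was used and 84 other per-library value columns, other read classes among them, were not.

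Low genes were removed with edgeR 4.0.16 (filterByExpr, at least 10 reads by its rule and 15 in total), and libraries were scaled by TMM before edgeR's quasi-likelihood F test on unique exon reads of all 6 libraries, two-sided, with Benjamini-Hochberg adjustment over all 12502 genes tested and a threshold of 0.05. The standard error is the log2 fold change over the square root of F, and the common biological coefficient of variation was 8.55%. Ratios were compared by exact permutation tests. Levels are CPM after TMM scaling. Genes alike in pattern needed a mean of at least 5 CPM, with predicted models left out. Since starts are 0-based in the table, 1 was added to each. Spans were compared with GENCODE annotation of GRCm38.

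The test was tried on simulated counts before use. Few genes were changed there, evenly up and down, and all had the same dispersion, unlike these data. The trial therefore does not bear on how reliable the calls here are. Alternatives were other scalings, filters and tools (DESeq2 1.42.0, limma 3.58.1), a minimum fold of 1.5 and leaving out each library. All 8 chains and every listed gene are named or counted whatever their result, apart from 1 item that is not reported here. The members, lists and tests were chosen with earlier results of these data known. R 4.3.3, Python 3.11.15, pandas 2.3.3, scipy 1.17.1 and matplotlib 3.10.9 were used.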

Additional observations from a re-analysis of the deposited data

How the results depend on the processing

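No paired analysis was possible because the table's columns carry no replicate number of the labels, and neighbouring library numbers were not taken as pairs. Such pairs would rest on column order and on likeness of some values, since no label states them. A fit with them was not run. Some genes ranked alike by neighbour. Lyz2 had 14.7, 20.6 and 6.89 CPM in CX-4945 libraries 2, 4 and 6. In DMSO libraries 1, 3 and 5 it had 7.86, 9.35 and 1.74 CPM. Csf1r and Runx3 ranked alike too. Of the chains, Il7r ranked alike, Il2ra and Il21r ranked in the opposite order, and the others did neither. Of the listed kinases and STATs, Jak1, Jak3, Stat5a and Stat6 ranked alike, and Stat3 and Stat5b did not. How many genes ranked alike was not counted. A batch shared by neighbours, and its effect on the unpaired tests, was not tested. The 6 chains called lower stayed so, and 0 were called higher, with other size factors, library totals, no filter or a filter of 5 CPM in 3 libraries, DESeq2 and limma-voom. Quantile normalization in voom, chosen after seeing the data, left 5, with Il2ra at -0.0546 (log2 fold change). Against a minimum fold of 1.5, the count fell to 1 chain, and Il2ra (-0.25), Il2rb (-0.51), Il2rg (-0.36), Il4ra (-0.61) and Il21r (-0.50) no longer passed. By that test 4 listed pathway genes, the other type I receptors left out, were lower and 5 higher, against 30 and 10 in the main test. The pathway genes tested were 5 ligands, 2 partner chains, 6 kinases and STATs and 6 feedback inhibitors. To these came 15 target genes, 12 regulators and 6 genes for sorting, degradation or shedding. Of all 12502 genes tested, 9.61% were lower by the minimum-fold test. The share of all genes higher by that test was not computed, so the 5 higher pathway genes cannot be set against it. In the main test 31.3% were lower and 30.6% higher. The pathway counts were not tested against these shares. Leaving out 1 library left 5 to 6 chains lower and 23 to 30 pathway genes lower and 8 to 11 higher.

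Among log2 fold changes without 1 library, Il2ra ranged from -0.297 to -0.212. Of the genes that did not pass with all libraries, these changed sign: Cish (-0.0694 to 0.0521), Xbp1 (-0.0319 to 0.0406), Foxp1 (-0.0125 to 0.101), Runx1 (-0.0581 to 0.0600), Rel (-0.0298 to 0.0573), Il6st (-0.0677 to 0.247, the higher value past the threshold) and Csf2rb2 (-0.487 to 0.0490). Scaled by library totals, which moved the median gene by 0.063, Cish was 0.0558 and Nfatc2 0.000727. With quantile normalization Cish was 0.00423 and Runx1 -0.00143, with limma-voom Runx1 was -0.00259, and with the 5 CPM filter Xbp1 was -0.00477 and Runx1 -0.0172. The cause of these changes was not tested. The planned fits on other read classes, introns included, were not run, although the headers name the same libraries. Depth limits Il9r and Il15ra, and reads that may be shared with Gm20489 limit Il2rg.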
